A study of Mus musculus with 12 samples.

Results

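The regions described here are the stretches of mouse RNA at which an m1A pull-down was called above its input in all 6 libraries of the series. Peaks of the 6 lists were merged where they shared at least 1 bp, and a merged region was kept when every list held a peak in it, so the regions were selected on the authors' peak calls (a q-value limit of 0.01) in these same libraries. This gave 402 of 13572 merged regions, or 2.96%, and 733 regions would meet the rule without control 1. Each pull-down came from the caudate putamen (CPu), the dorsal striatum, of adult male Tet1 fl/fl mice, in which Tet1 carries loxP sites. Tet1 KO tissue (Tet1 delta/delta, 3 pull-downs and 3 inputs) had received AAV-Cre-EGFP, and control tissue (Tet1 fl/fl, 3 pull-downs and 3 inputs) AAV-EGFP, each by stereotaxic injection 2 weeks before collection. The deletion therefore depends on the cells the virus reached, and both groups carry floxed alleles, virus and EGFP. The labels do not say whether the numbered libraries came from separate animals, so the spread between them may be technical. In this bulk tissue, fewer cells of a type and less RNA per cell cannot be told apart.

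m1A is adenosine methylated at the N1 position, which blocks Watson-Crick pairing. It is best known from tRNA, where the TRMT6/TRMT61A complex places it in the T loop, and from ribosomal and mitochondrial RNA. In mRNA, antibody maps have placed it mostly near the 5′ end of transcripts in GC-rich, structured sequence. TET1 is known as a dioxygenase of methylated cytosine in DNA, and the series asked where its loss goes with a change in m1A.

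Pull-down tags entering the peak calling numbered 1235247, 2508102 and 1336328 in KO 1, 2 and 3, and 459332, 1097292 and 864206 in controls 1, 2 and 3, so every KO library was deeper than every control. Control 1 was also the only library called with all duplicate tags kept. Fold enrichment, the authors' ratio of pull-down coverage at a summit to the local background, belongs to single peaks of single lists. It is given below side by side and ranked within each library, and shows no change between libraries of unequal depth. Among defining cell type markers, 3 of 11 of medium spiny neurons (Ppp1r1b, Pde10a and Adcy5) lay under regions of all 6 lists. So did 1 of 5 of oligodendrocytes (Mbp) and 1 of 3 of cortical excitatory neurons (Slc17a7). None of the 3 pan-neuronal, 5 astrocyte, 4 microglial, 3 endothelial and 1 choroid plexus markers did.

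Many of the shared regions sat just inside the 5′ end of a gene. The sequences below show 6 of them, those among the first 9 start-proximal regions (in the order defined below) that cover at least 40 of the 100 bases around the gene start. Each runs 5′ to 3′ on the gene's strand from 50 bases before the RefSeq start to 50 bases after it (RefSeq, GRCm38.p6), and capitals mark the bases inside the m1A region.
Adam10: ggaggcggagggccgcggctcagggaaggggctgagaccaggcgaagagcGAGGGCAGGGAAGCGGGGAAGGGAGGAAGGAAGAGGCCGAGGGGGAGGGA
Nbea: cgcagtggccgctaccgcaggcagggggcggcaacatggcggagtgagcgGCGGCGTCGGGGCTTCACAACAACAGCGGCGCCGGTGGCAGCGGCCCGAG
Cox11: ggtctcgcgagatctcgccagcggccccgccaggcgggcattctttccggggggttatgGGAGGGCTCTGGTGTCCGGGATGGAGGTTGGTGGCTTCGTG
Mlec: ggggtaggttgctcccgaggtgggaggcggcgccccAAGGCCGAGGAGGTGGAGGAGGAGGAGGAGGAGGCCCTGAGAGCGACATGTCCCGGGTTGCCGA
Tmem178: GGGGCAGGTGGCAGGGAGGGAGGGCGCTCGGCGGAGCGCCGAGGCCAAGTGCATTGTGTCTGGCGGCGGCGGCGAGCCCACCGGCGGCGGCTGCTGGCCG
Hexim1: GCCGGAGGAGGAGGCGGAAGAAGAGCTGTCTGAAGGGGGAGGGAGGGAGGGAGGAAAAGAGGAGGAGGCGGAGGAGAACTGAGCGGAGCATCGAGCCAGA
The windows lie at chr9:70678932-70679031 (plus strand) for Adam10, chr3:56183652-56183751 (minus) for Nbea, chr11:90638134-90638233 (plus) for Cox11, chr5:115158127-115158226 (minus) for Mlec, chr17:80944582-80944681 (plus) for Tmem178 and chr11:103116275-103116374 (plus) for Hexim1. Adam10 encodes a membrane sheddase that cleaves the amyloid precursor protein, Nbea a regulator of membrane traffic at synapses, and Cox11 an assembly factor of cytochrome c oxidase. Mlec encodes malectin, a lectin of the endoplasmic reticulum, and Hexim1 a protein that holds the transcription elongation kinase P-TEFb inactive. The Adam10 and Nbea regions begin exactly at the annotated start and run into the gene. Their summits stood 116 bp (Adam10), 181 bp (Nbea), 157 bp (Cox11), 185 bp (Mlec), 62 bp (Tmem178) and 77 bp (Hexim1) downstream of the start. The first 50 transcribed bases were 92% purine in Adam10 and 82% in Hexim1, against 52% in Tmem178.

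Start positions were available for 388 of the 402 regions. The 11 regions on chromosome 18 and the 3 on the mitochondrial genome were not placed against starts. In 117 of the 388 (30.2%), the median summit of the 6 libraries lay 0 to 500 bp downstream of a RefSeq start, and in all 117 it lay in the span of the gene that starts there. In 22 of 388 (5.67%) a start lay within 500 bp on the other side, so that the summit was upstream of it. Only 12 of these 22 were not also among the 117, so the shares overlap. The distances were narrow, with a median of 209 bp and quartiles of 165 and 278 bp among the 117. The bins from 100 to 300 bp downstream of the nearest start held 85 regions (21.9%), while the first 100 bp held 6. Exons were not analysed here, so whether such a summit lies in an exon or the first intron is not known.

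**Figure D1:**
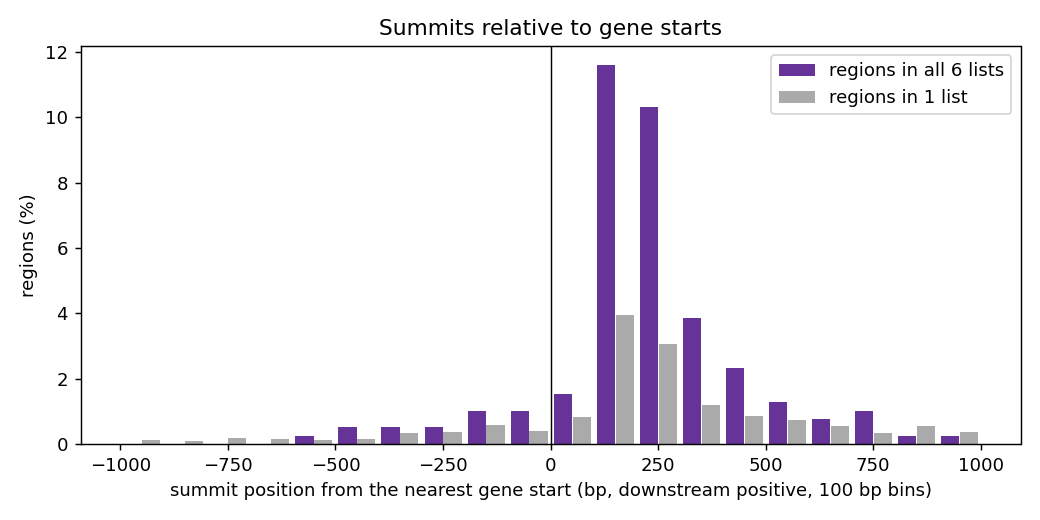
Distance of region summits from the nearest RefSeq gene start, in bins of 100 bp with downstream positive, as a percentage of the 388 placed regions of all 6 lists (purple) and of the 9062 placed regions of a single list (grey). The tallest purple bins, 100 to 200 and 200 to 300 bp downstream, hold 11.6% and 10.3% of the shared regions, against 3.94% and 3.06% of single-list regions.

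Start-proximal summits were more frequent among regions found in several lists than among those of 1 list. The share was 30.2% for regions of all 6 lists, against 27.9% for 5 lists, 31.1% for 4, 26.7% for 3, 21.2% for 2 and 10.3% (930 of 9062) for 1 list. Regions of all 6 lists therefore stood near those of 4 and 5 lists, and apart from those of 1 list. They were also wider, with a median of 466.5 bp against 388 bp for 5 lists and 177 bp for 1 list. Their fold enrichment was higher (median of the regions' mean 10.4, against 8.69 for 5 lists and 6.15 for 1 list). The part of width or enrichment in the share near starts was not tested. Protein-coding gene spans held 361 of the 402 median summits (89.8%), close to the 86.7% of single-list regions. No annotated gene held 23 (5.72%), against 5.11% of regions of 5 lists and 9.01% of single-list regions.

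The sequence around these starts was GC-rich, as it was around starts next to single-list regions. RefSeq windows from 250 bases before to 50 after the start had a median GC content of 65% at the 117 starts, against 64% at 925 starts with a single-list region and 52.7% over all 32851 windows. The median number of CG dinucleotides per window was 27, against 24 at single-list starts and 7 over all windows. The 9-letter motif GTTCNANNC, which resembles the T loop that the tRNA enzyme recognises, was searched on both strands. It was present in 12 of the 117 windows (10.3%), against 7.89% at single-list starts and 9.32% of all windows. Only the last 50 bases of a window are transcribed, and none of the 13 matches in 12 windows lay there. The closest to a start was at Rpl13a, 62 bases before it. The windows end 50 bases after the start, while the summits of the 117 had quartiles of 165 and 278 bp downstream. The sequence under most of these summits was therefore not searched, and the shares say nothing about the motif there.

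The letters GGAGG, searched after the printed sequences had been seen, occurred on the gene strand in the first 50 transcribed bases of 41 of the 117 starts (35.0%). The share was 29.7% at starts of 5-list regions, 26.1% for 4 lists, 24.5% for 3, 21.1% for 2, 23.2% for 1 and 13.7% over all starts. The same letters on the opposite strand (CCTCC on the gene strand) were in 6.84% of the shared starts and 9.10% of all starts. Purines made up a median of 58% of these bases at shared starts, 54% at single-list starts and 52% over all starts. Their median GC content was 70%, 68% and 56% in the same order, and its part in the GGAGG share was not tested. The 117 starts include the printed ones from which the letters were taken. Some regions, such as those of Ctbp1 and Hnrnpab, cover none of the 50 bases searched. The summits of the 117 had quartiles of 165 and 278 bp downstream, beyond these bases. The GGAGG shares therefore describe the sequence next to the start and say nothing about the sequence under most summits. A match is a description of the sequence and does not mark a site of m1A.

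**Figure D2:**
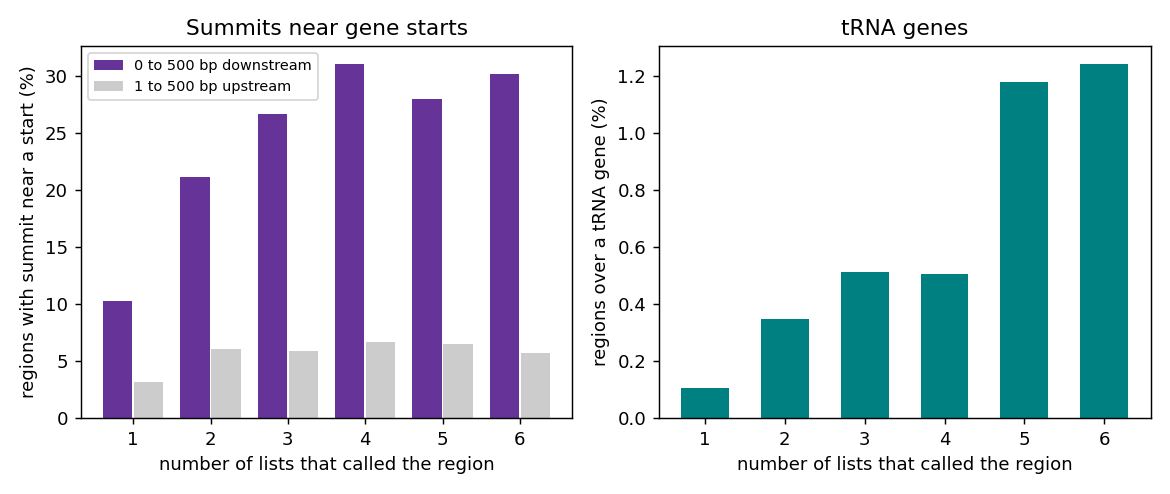
Left, percentage of placed regions with a summit 0 to 500 bp downstream (purple) or 1 to 500 bp upstream (grey) of a gene start, where a region with starts on either side counts in each. Right, percentage of regions overlapping a tRNA gene, both by the number of lists that called the region. Regions of all 6 lists reach 30.2% downstream, 5.67% upstream and 1.24% over tRNA genes.

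Genes of tRNA, the RNA class in which m1A is best known, lay under 5 of the 402 regions (1.24%). The share was close to this in regions of 5 lists (6 of 509, 1.18%) and lower in single-list regions (10 of 9365, 0.107%). Wider regions have more room to overlap a gene, and the part of width was not tested. The nuclear tRNA genes were n-TMcat8, n-TMcat5 and n-TMcat2, named for methionine tRNA with a CAT anticodon, on chromosome 13, and n-TEctc8, for glutamate tRNA with a CTC anticodon, on chromosome 1. At n-TMcat8 (chr13:21974895-21975097) the fold enrichments were 9.93, 7.43 and 12.8 in KO 1, 2 and 3, and 20.2, 12.7 and 12.98 in controls 1, 2 and 3. The groups overlapped only through KO 3, which lay just above control 2. At n-TEctc8 (chr1:171071673-171071991) they were 10.4, 5.40 and 11.7 in KO, and 6.72, 7.16 and 10.5 in control, with overlap. At n-TMcat2 (chr13:21906979-21907299) they were 6.76, 9.81 and 9.63 in KO, and 4.80, 6.34 and 5.99 in control, so every KO value lay above every control value. The region at n-TMcat5 (chr13:23500093-23500288) had 7.22, 7.36 and 8.27 in KO and 5.76, 12.7 and 8.34 in control. The summits of n-TMcat8 and n-TMcat5 stood 32 bp outside the tRNA gene. Copies of a tRNA gene share reads, so the copy that carried each peak is uncertain. In the fifth region, the mitochondrial tRNA gene TrnE was touched only by the end of a region in ND5 and ND6.

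Of the mitochondrial genome, 3 regions were shared. The ND1 region (chrMT:2793-3664), in a core subunit gene of respiratory complex I, had fold enrichments of 7.05, 6.49 and 4.84 in KO and 14.6, 13.5 and 17.2 in control, so no KO value reached a control value. The region with its summit in ATP6, a membrane subunit of ATP synthase (7872 to 8511), had 3.86, 6.44 and 3.17 in KO and 4.37, 8.94 and 10.4 in control. The one from ND5 into ND6 (12338 to 14074) had 4.27, 4.29 and 3.60 in KO and 6.12, 7.69 and 5.41 in control. Its values did not overlap, but its ranks within the libraries did. On chromosome 1, the pseudogenes Gm10925 and Gm10222 also held shared regions, with 5.11, 10.0 and 3.81 in KO and 19.6, 14.1 and 15.3 in control for Gm10925.

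The structured RNAs Rn7s1 and Rn7s2 (signal recognition particle RNA), Rn7sk (the 7SK RNA, partner of Hexim1 in that role) and the long non-coding Malat1 were shared regions of low enrichment. Rn7s2 had 4.25, 2.85 and 4.25 in KO and 4.52, 4.98 and 7.68 in control. Rn7sk had 3.52, 2.76 and 3.63 in KO and 5.08, 5.40 and 7.91 in control. The highest KO value of each of these lay below the lowest control value. By rank within the libraries, Rn7sk also separated and Rn7s2 did not. Malat1 overlapped, with 3.40, 4.74 and 3.22 in KO and 3.98, 5.25 and 5.82 in control. These 4 were among the 19 genes of the list of abundant non-coding RNAs that had any region.

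Over the 402 regions, the median fold enrichment was 9.73, 8.24 and 9.06 in KO 1, 2 and 3, and 8.66, 11.8 and 10.8 in controls 1, 2 and 3. Every KO median lay below those of controls 2 and 3, a lean towards lower KO values in the set as a whole. The median of control 1 lay below those of KO 1 and KO 3. Peaks outside the shared regions had medians of 7.02, 7.18 and 7.47 in KO and 4.35, 6.88 and 6.89 in control. Shared regions took 11.5%, 6.12% and 14.4% of the KO peaks and 13.5%, 12.5% and 14.1% of the control peaks, the low share being that of KO 2 with its list of 6947 peaks. Start-proximal regions had medians close to those of the rest. They were 10.2, 7.91 and 9.90 in KO, with 9.25, 8.63 and 9.04 for the other placed regions, and 8.73, 11.9 and 11.4 in control, with 8.63, 11.7 and 10.5 for the others. KO 2 was the only library in which the start-proximal median was the lower.

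To order the regions without setting libraries against each other, the 402 were ranked by fold enrichment within each library, with 402 the highest, and ordered by their lowest rank. The first was in Bcr, a regulator of small GTPases (chr10:75127992-75128638), with fold enrichments of 38.6, 21.6 and 30.7 in KO and 22.8, 30.0 and 25.6 in control. No library ranked it below 370. Next came Lrrfip2 (chr9:111176327-111176802) with 29.4, 21.9 and 21.6 in KO and 48.4, 27.2 and 21.8 in control. In Cdh4, the adhesion protein R-cadherin (chr2:179738418-179739178), the values were 81.2, 37.1 and 70.4 in KO and 18.2, 41.7 and 33.4 in control. Cdh4 ranked 402, 399 and 402 in KO and 357, 393 and 392 in control, so its KO ranks were all above its control ranks although the fold values overlapped.

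Further genes of the first 20 follow. Nova1, a neuronal splicing factor, had 16.4, 15.7 and 16.2 in KO and 24.7, 37.0 and 34.4 in control. Nbea had 19.2, 15.2 and 25.5 in KO and 33.0, 43.6 and 42.5 in control. In both, all KO values lay below all control values. Disc1, a scaffold protein of neuronal development, had 44.2, 18.9 and 38.3 in KO and 14.0, 39.9 and 35.9 in control, with wide overlap. Adam10 had 17.4, 22.3 and 19.5 in KO and 16.1, 37.0 and 22.8 in control. Wasf3, an activator of actin branching, had 17.7, 28.3 and 13.8 in KO and 30.5, 32.2 and 36.1 in control; its KO values were below the control values but its ranks overlapped.

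The corepressor gene Ctbp1 (chr5:33274632-33274920) had 28.1, 25.01 and 24.8 in KO and 22.2, 19.4 and 22.7 in control, with every KO value the higher. The RNA-binding protein gene Hnrnpab varied little, with 21.3, 15.8 and 19.97 in KO and 19.5, 18 and 17.2 in control. Cox11, whose region starts next to the start of the opposite gene Stxbp4, had 16.2, 15.3 and 25.4 in KO and 13.6, 21.1 and 17.9 in control. Dnajc3, a cochaperone of the endoplasmic reticulum, had 33.2, 26.3 and 33.1 in KO and 16.9, 19.9 and 15.4 in control. Its KO values all lay above its control values. The remaining genes were Denn2b, Chsy3 (a chondroitin synthase), Zfat and Ndufaf6 (a complex I assembly factor), with lowest values from 13.3 for Ndufaf6 to 16.8 for Denn2b. Of the first 20 regions, 5 were start-proximal: those of Adam10, Nbea, Ctbp1, Hnrnpab and Cox11.

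**Figure D3:**
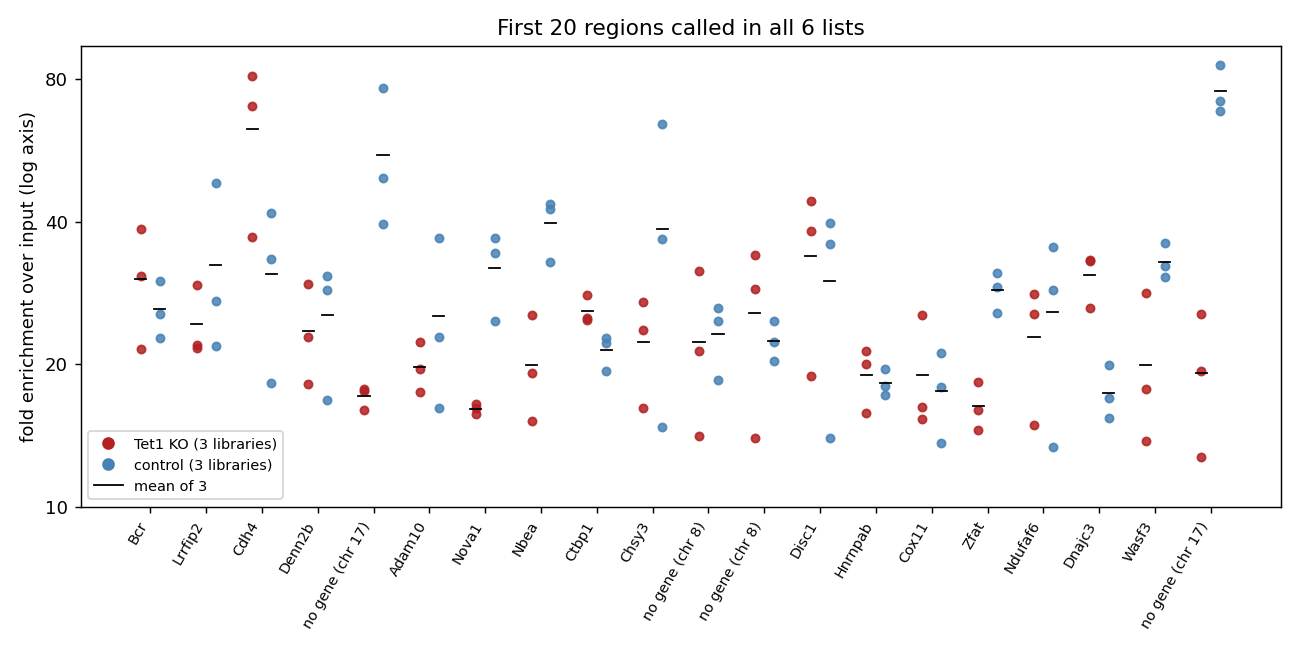
Fold enrichment over input (log axis) in the first 20 shared regions, with each point 1 library, KO (red) left of control (blue), and bars at the mean of 3. KO points lie wholly above control points in Ctbp1 and Dnajc3 and wholly below them in Nova1, Nbea, Zfat, Wasf3 and both regions outside genes on chromosome 17.

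The other 4 of the first 20 had their median summit in no annotated gene. The widest shared region, 6201 bp on chr17:13585502-13591702, had 19.3, 12.8 and 25.5 in KO and 72.1, 68.8 and 85.6 in control. Its nearest gene span, 2700054A10Rik, was 36388 bp away. A second on the same chromosome (chr17:13654457-13655318) had 17.6, 16.03 and 17.7 in KO and 76.6, 39.7 and 49.6 in control. Both had all KO fold values below all control values. In the second, ranks by pileup went the other way, with every KO rank above every control rank, and ranks by −log10 q overlapped. In the 6201 bp region, both of these rankings overlapped between genotypes. The pair on chromosome 8, at 72225069 to 72226142 and 72234400 to 72235382, overlapped between genotypes, with lowest values of 14.1 and 13.9. In all, 23 shared regions had their median summit in no gene, among them 4 on chromosome 8 between 19784681 and 20860630 and a pair near Amer3 on chromosome 1. Some of the 23 still reach a gene, such as those over n-TMcat8 and n-TMcat5. The summit nearest to a gene lay 9 bp from Gm10060. The sequence of the 23 regions was not analysed here.

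Gene lists were read by the number of their genes that held a shared region, among those with a region of any list. Over all genes that number was 379 of 6643, or 5.71%. The rule chose the regions, so the shares describe the lists and carry no test. Shares above 5.71% were found in neuronal, glial, mitochondrial and other lists alike, and many lists are small. They were 33.3% for astrocyte genes (3 of 9) and for mitochondrially encoded RNAs (3 of 9), 21.1% for abundant and structured non-coding RNAs (4 of 19) and 20% for cortical excitatory genes (1 of 5, Slc17a7). Immediate early genes had 16.7% (2 of 12, Egr1 and Jund) and oligodendrocyte genes 14.3% (1 of 7, Mbp). Of 28 genes of striatal dopamine and cAMP signalling, 7 held a shared region (25%), as did 11 of 58 glutamatergic postsynapse genes (19.0%) and 5 of 40 presynaptic genes (12.5%).

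The striatal regions included 3 in Pde10a, the phosphodiesterase of medium spiny neurons. The first (chr17:8628739-8629099) had 21.04, 36.1 and 16.1 in KO and 14.4, 9.55 and 11.9 in control. The second (chr17:8906202-8906649) had 12.9, 17.0 and 15.4 in KO and 9.73, 13.7 and 10.6 in control. The third (chr17:8906754-8907349) had 6.67, 7.24 and 5.03 in KO and 9.45, 5.52 and 7.52 in control. KO values exceeded all control values in the first, and KO ranks, defined above, also did in the second, whose values overlapped as those of the third did. Gng7, a G protein subunit of striatal dopamine signalling, had 11.6, 11.9 and 12.1 in KO and 16.05, 17.5 and 13.6 in control. Its values did not overlap, but its ranks did. Itpr1, an intracellular calcium release channel, had 16.5, 14.1 and 5.72 in KO and 20.2, 20.1 and 18.2 in control. Ppp3ca, the catalytic subunit of calcineurin, had 11.5, 7.48 and 11.3 in KO and 4.25, 7.70 and 7.16 in control. Ppp1r1b, which encodes DARPP-32, had 5.26, 4.24 and 5.08 in KO and 7.87, 6.01 and 7.39 in control. By value, Itpr1 and Ppp1r1b were below control in every KO library, while Ppp3ca overlapped through KO 2. By rank, Itpr1 and Ppp3ca separated and Ppp1r1b did not. No region of this list was start-proximal.

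Postsynaptic regions lay in scaffold, kinase and receptor genes. Dlgap2, a scaffold protein, held a pair. The stronger (chr8:14534491-14534949) had 11.8, 22.4 and 18.1 in KO and 24.6, 34.8 and 20.9 in control, and the other (chr8:14306728-14307403) had 8.16, 8.86 and 6.56 in KO and 22, 23.7 and 19.6 in control. The values overlapped in the stronger region and did not in the other. Cacng4, an auxiliary AMPA receptor subunit, had 21.3, 35.2 and 22.7 in KO and 10.1, 51.1 and 25.8 in control. Shank3, a scaffold protein, had 8.36, 8.67 and 14.7 in KO and 11.7, 12.7 and 10.7 in control. Both overlapped. Nrgn, a calmodulin-binding protein of spines, held 3 regions and Camk2a, the kinase of synaptic plasticity, a pair, which were among the weaker shared regions. Of the presynaptic genes, Snph had 27.1, 28.2 and 20.7 in KO and 9.11, 25.2 and 16.4 in control. Nrxn2, an adhesion receptor, had 8.45, 5.24 and 10.1 in KO and 15.4, 12.6 and 12.7 in control, and Cplx1 5.02, 8.74 and 6.23 in KO and 18.5, 4.98 and 6.55 in control. By value, Nrxn2 was below control in every KO library, though its ranks overlapped, while Snph and Cplx1 overlapped by value.

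Signalling enzymes and RNA-binding proteins made up the largest groups by number. Of 104 kinase and phosphatase genes, 16 held a shared region (15.4%), and of 110 RNA-binding and splicing genes, 15 did (13.6%). The RNA-binding genes included 7 Hnrnp genes, Srsf5, Khdrbs1, Celf5 and Nova1, and 5 of their 17 regions were start-proximal. Srsf5, a splicing factor, had 27.1, 11.4 and 18.9 in KO and 20.3, 15.3 and 25.3 in control. Map2k1, a kinase of the ERK cascade, had 9.21, 7.31 and 11.4 in KO and 17.4, 11.03 and 11.1 in control, and both overlapped. Mapk8ip3, a scaffold of JNK signalling and axonal transport, had 7.78, 6.79 and 7.11 in KO and 8.21, 16.8 and 17.8 in control, without overlap.

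Among the other lists, shared regions were held by 7 of 86 small GTPase regulators, 5 of 70 voltage-gated ion channels, 5 of 66 cytoskeletal genes, 6 of 93 transcription and chromatin regulators and 5 of 129 ubiquitin genes. Among housekeeping lists the numbers were 2 of 29 cytosolic ribosomal proteins (Rpl13a and Rps16), 4 of 38 oxidative phosphorylation genes, 2 of 29 translation factors, 1 of 32 chaperones and 1 of 25 histones (H3c13). Rpl13a had 9.87, 7.03 and 12.7 in KO and 15.6, 19.6 and 23.4 in control, with no overlap. Hexim1, with 18.5, 14.9 and 12.8 in KO and 24.4, 16.4 and 14.2 in control, overlapped, as did H3c13 with 7.70, 2.68 and 9.06 in KO and 5.51, 9.51 and 5.65 in control. The glial regions included those of Apoe and Clu, which encode the apolipoproteins E and J made by astrocytes, and of Mbp, the myelin basic protein. Clu had 10.5, 8.60 and 5.74 in KO and 7.75, 8.27 and 8.27 in control. Apoe had 3.71, 3.91 and 3.08 in KO and 3.95, 3.38 and 6.42 in control, and Mbp 4.00, 3.22 and 3.63 in KO and 2.73, 4.19 and 5.36 in control, and all 3 overlapped. No shared region lay in the 5 microglial, 4 endothelial and choroid plexus, 10 TET and DNA methylation genes or 5 loci that can collect ribosomal RNA reads.

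Of the listed RNA methylation genes, which are not all specific to m1A, only Trmt10b, a tRNA methyltransferase, held a shared region (chr4:45312000-45312563). Its fold enrichments were 5.41, 9.41 and 12.0 in KO and 7.64, 8.30 and 5.97 in control, which overlapped. The demethylase genes Alkbh3 and Alkbh5 and the reader gene Ythdf3 reached 2 lists at best in any single region, and Fto (in 6 regions), Alkbh2, Alkbh7 and Ythdc1 reached 1. No region lay in Trmt6, Trmt61a, Trmt61b, Trmt10a, Trmt10c, Alkbh1, Alkbh4, Alkbh6, Alkbh8, Rrp8, Ythdf1, Ythdf2 or Ythdc2.

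Within the shared set, libraries could be compared by rank, since every library ranks the same 402 regions. In 27 regions (6.72%) the 3 KO ranks all lay above the 3 control ranks, and in 37 (9.2%) all lay below. The other 338 overlapped. The ranks carry no test here, and every KO library was deeper, so genotype and depth cannot be told apart. Of the 117 start-proximal regions, 10 were higher and 8 lower by this measure. Ranking by −log10 q kept 14 of the 27 and 20 of the 37, and 8 and 15 held by fold enrichment, −log10 q and pileup alike. Some regions separated fully the other way by pileup. Those in Gm1604a, in Sik3 and Gm46110, and at chr17:13654457-13655318 turned to higher in KO. An Nrgn region (chr9:37544987-37545463) turned to lower. The region in Sik3 and Gm46110 also turned by −log10 q.

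The largest gap upwards in KO was in a region outside genes (chr5:122521500-122522434), which ranked 334, 402 and 231 in KO and 163.5, 118 and 24 in control. Ccdc191 ranked 179, 376.5 and 210 in KO and 31.5, 83 and 4 in control. Alms1, a centrosome and cilium protein, ranked 303, 277.5 and 311 in KO and 42, 129 and 148 in control. Dusp7, a phosphatase of MAP kinases, ranked 305, 257 and 298.5 in KO and 91, 58 and 175 in control. Ankfy1, an endosomal protein whose region lies over the overlapping Gm46287, ranked 309, 383 and 338 in KO and 181, 198 and 134.5 in control. The region outside genes, Ccdc191, Dusp7 and Ankfy1 kept the pattern by −log10 q and pileup, and Alms1 by −log10 q only. Alms1 and Dusp7 are start-proximal, with summits 307 and 415 bp from the start. Alms1 and Ankfy1 had fold enrichments of 14.3, 10.8 and 14.0 and of 14.4, 25.3 and 16.7 in KO, against 5.24, 8.75 and 9.29 and 8.12, 11.5 and 8.91 in control.

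The largest gap downwards was in Egr1, an activity-dependent transcription factor (chr18:34861051-34861891). It ranked 186.5, 73 and 43 in KO and 395, 241 and 291 in control, with fold enrichments of 9.03, 4.77 and 4.66 in KO and 31.5, 13.3 and 14.5 in control. ND1 followed with ranks of 116, 127 and 47 in KO and 325, 249 and 330 in control. Gm10925 ranked 46, 259 and 23 in KO and 366, 263 and 306 in control, so KO 2 came close to control 2. The second Dlgap2 region ranked 155.5, 228 and 105 in KO and 377, 364 and 353 in control. Gnb1, a G protein β subunit, had a start-proximal region with ranks of 158.5, 95 and 179 in KO and 372, 267.5 and 374 in control. Jund, the other immediate early gene, also had lower ranks in every KO library, with fold enrichments of 12.6, 4.71 and 12.2 in KO and 22.4, 15.2 and 14.2 in control. Of these, Egr1, ND1 and Gnb1 kept the pattern by −log10 q and pileup, Gm10925 by −log10 q only, and the Dlgap2 and Jund regions by neither.

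**Figure D4:**
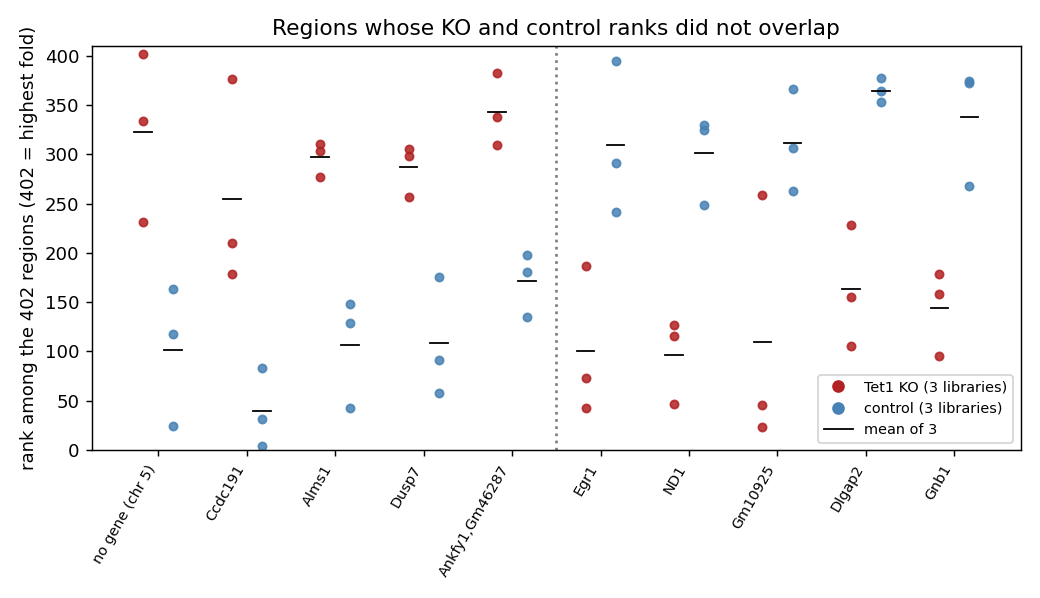
Ranks among the 402 shared regions (402 is the highest fold enrichment) for the 5 regions with the largest gap in each direction whose KO (red) and control (blue) ranks did not overlap. Points are libraries and bars the mean of 3. Left of the dotted line KO ranks are higher, right of it lower. Gm10925 has its highest KO rank, 259, just under its lowest control rank, 263.

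Summits of single libraries lay close to the region's median summit in both genotypes. A library's summit lay a median of 8.5, 9.5 and 11 bp from the region's median summit in KO 1, 2 and 3, and 15, 10.5 and 10.5 bp in controls 1, 2 and 3. Within 50 bp lay 85.1%, 80.6% and 86.3% of KO summits and 79.1%, 85.6% and 85.1% of control summits. Peaks in shared regions had median widths of 302.5, 304 and 299 bp in KO and 255.5, 367 and 347.5 bp in control, so control 1 lay below all KO libraries and the other controls above them. A library had on average 1.08, 1.06 and 1.09 peaks per shared region in KO and 1.07, 1.07 and 1.06 in control. These measures overlapped between the genotypes. With 3 libraries against 3, an exact permutation test could not have gone below 0.1. In 388 regions at least 1 base was covered by peaks of all 6 lists, and the other 14 were joined through a chain of overlaps.

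Ranks agreed best within control and within KO for some pairs only. Spearman's rank correlation over the 402 regions, given as a description since regions share libraries and depth, was 0.72 between KO 1 and KO 3 and 0.51 and 0.50 between KO 2 and each of these. It was 0.80 between controls 2 and 3 and 0.56 and 0.57 between control 1 and each of these. Between genotypes it ran from 0.37 (KO 2 and control 1) to 0.67 (KO 3 and control 2).

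The regions nearest the limit of the rule were decided by 1 library. Just inside it, the lowest −log10 q were 2.01 for a region in Tnik, a kinase of the postsynapse, in KO 3, 2.39 for one in Nptn, the adhesion protein neuroplastin, in control 1, and 2.40 for one in Lcmt1, a methyltransferase of protein phosphatases, in control 1. Nptn had −log10 q of 25.6, 31.0 and 32.1 in KO and 13.7 and 28.4 in controls 2 and 3. Just outside it were 509 regions of 5 lists, of which control 1 alone was missing from 331 and KO 2 from 85. The strongest of these were in Celf4 (chr18:25626646-25627229, not called in control 1), Rpph1, the RNA of RNase P (chr14:50807468-50807729, not called in KO 2), and Fam155a (chr8:9771344-9771621, not called in control 1). Celf4, a neuronal RNA-binding protein gene, had 47.4, 21.9 and 31.5 in KO and 33.1 and 31.8 in controls 2 and 3.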

How the data were processed

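m1A pull-downs and inputs of 6 samples each were sequenced, and 6 peak lists, 1 per pull-down, were analysed. Per the submitters' processing notes, cutadapt 2.8, HISAT2 2.1.0, MACS2 2.2.6 and GRCm38 were used. Per the file headers, the matching input served as control for each pull-down, calls passed a q-value of 0.01, and the larger dataset was scaled to the smaller. The deposited columns are the authors' pileup (a signal, tag coverage at the summit), −log10 p-value, −log10 q-value and fold enrichment (a ratio), with positions. The inputs entered only through that calling. A peak list holds no counts outside its peaks, so values carry no counting interval, and a missing call is not absence of m1A.

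Peaks were merged at 1 bp, and a library stood in a region by its peak of highest fold enrichment. Regions were placed by the median of the 6 summits in RefSeq gene spans (GRCm38.p6), at most 3 genes per summit, and against 32851 RefSeq start windows. Ties in rank were averaged. Python 3.11.15, pandas 2.3.3, numpy 2.4.6 and scipy 1.17.1 were used, and the merge and ranking were tested on simulated data. The text names the first 20 regions by lowest rank, up to 3 per gene list, the 3 widest, 5 with the largest rank gap each way, and those at the limit of the rule, drawing on 77 regions that this rule picks. Further regions of listed genes were named after their values were seen. The members and the 26 gene lists were chosen with earlier results of these data known. Alternatives covered thresholds, overlap, list length, the ranked value and left-out libraries.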

Additional observations from a re-analysis of the deposited data

How the results depend on the processing

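The number of shared regions depended on control 1. It was 402, ranged from 410 to 733 when any 1 library was left out (733 without control 1), and was 985 without control 1 and KO 2. It was 352 at a −log10 q of at least 5, 338 at a fold enrichment of at least 4, 401 with 50 bp of overlap and 322 with lists of equal length. The start-proximal share, whose alternatives were chosen after seeing the data, stayed between 27.3% and 32.2% under these settings, and was 21.1% within 250 bp and 34.0% within 1000 bp. Regions with KO ranks all higher or all lower numbered 27 and 37, 54 and 64 by pileup, and 238 and 226 without control 1 and KO 2, where fewer libraries must separate. Leaving out 1 library gave 42 to 104 higher and 51 to 106 lower. By −log10 q, the KO minus control mean rank turned from negative to 13.3 for the region in Sik3 and Gm46110 and to 0.33 for the 6201 bp region on chromosome 17. The cause was not tested. The KO minus control differences of −21.5 bp in width, −2.33 bp in summit offset and 0.012 in peaks per region were small. The width difference ran from −32 to 0.25 bp with 1 library left out, turning sign without control 2, and the offset from −4.58 to 0.17 bp, turning sign without KO 1. The difference in peaks per region was −0.0031 with lists of equal length and ran from 0.0019 to 0.024 with 1 library left out. Replicate numbers did not pair the libraries: deviations of log2 fold enrichment from group means correlated at 0.02, 0.04 and 0.04 between same-numbered libraries. With the replicate block the differences were −21.5, −2.33 and 0.012, which are the same by construction. The block shows nothing about robustness. Its sign-flip test could not have gone below 0.25, nor the permutation test below 0.1, so neither could make a call. Control 1 was the missing library in 331 of 509 regions of 5 lists. It had the fewest tags and was the only list called with all duplicates kept. Depth and duplicate handling cannot be told apart here, and a missing call is not absence.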
